A study of Mus musculus with 44 samples.

Results

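The transcripts that an m6A antibody enriched from 6C3 stroma, a marrow-supporting cell population of the newborn mouse skeleton, were read from 4 of the 44 libraries of the series. These were 2 libraries of RNA bound by the antibody (IP) and 2 libraries of the RNA before binding (input). They were chosen by name, as the IP and input libraries of wild-type 6C3 cells, and IP and input were paired by replicate number. The cells came from the long bones of C57Bl6 mice at postnatal day 3 that received no treatment. The labels call them wild type, the name the study uses for its Mettl3 fl/fl control mice, in which the gene of the m6A methyltransferase is floxed and no Cre is present. Cells were sorted with an antibody to 6C3 after cells with blood or endothelial surface markers (CD45, Ter119, Tie2) were excluded, so the population is a gate that can hold several stromal cell types. Libraries were made by SLIM-seq, in which total RNA is bound by the m6A antibody, and bound and input RNA are copied and amplified as in Smart-seq2. The labels name no batch difference among the 4 libraries, which does not show that the replicates were sorted or prepared together. The other 7 wild-type populations (SSC, pBCSP, BCSP, PCP, THY, BLSP and HEC), with 28 libraries of the same kind, were used only to ask where 6C3 differed.

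N6-methyladenosine (m6A) is a methyl mark placed on adenosines of mRNA by a complex around METTL3 and METTL14, mostly within GGAC-like motifs and near stop codons and in long exons. It is bound by YTH proteins and IGF2BP proteins and removed by FTO and ALKBH5, and it influences the decay and translation of the transcript that carries it. 6C3, also called BP-1 or aminopeptidase A, is the product of Enpep, and 6C3-positive stroma of developing bone is known for supporting blood cell precursors through secreted factors such as CXCL12, KIT ligand and CSF1.

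The IP libraries held 23465479 and 16506779 counts and the input libraries 34962271 and 39923447, for replicates 1 and 2 in each case. All wild-type libraries together ranged from 16506779 to 35890123 counts in IP and from 19853970 to 44219035 in input. Across the 16904 genes tested, the correlation of log2 counts between replicates was 0.920 in IP and 0.959 in input, and that of the log2 ratio of IP to input between the 2 pairs was 0.602. Scaled by library size alone, Enpep was at 41.5 and 37.3 CPM (counts scaled to a fixed library total) in the 6C3 input libraries. The mean of HEC was higher, at 51.3 CPM, and those of the other 6 populations lay between 2.33 and 7.14 CPM. Endothelial markers summed to 1.23 and 1.71 CPM and Tek, Cd3e, Myh8 and Lep, which mark endothelium, T cells, muscle and fat, were at 0 in both input libraries. Blood cell markers summed to 22.7 and 51.2 CPM, with the macrophage gene Cd68 and the haemoglobin genes Hba-a1 and Hbb-bs highest, muscle markers to 14.8 and 7.38 CPM, fat cell markers to 6.71 and 10.4 CPM and osteoclast markers to 106 and 182 CPM. Cartilage and bone matrix markers were abundant, with Col2a1 at 31481 and 65882 CPM and Col1a1 at 134501 and 115929 CPM, and pericyte markers summed to 716 and 806 CPM. The part of these other cell types in the ratios was not tested, and in bulk libraries more cells of a type cannot be told apart from more RNA per cell.

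Fold changes compare IP with input on the log2 scale. A gene counted as enriched above 1 and as depleted below -1, at an unadjusted p under 0.05 in edgeR's quasi-likelihood test, with the replicate pair as a block. It called 2319 genes enriched, which is 13.7% of the 16904 tested, and 2965 genes depleted, which is 17.5%. At a Benjamini-Hochberg adjusted p under 0.05 the same limits left 1840 (10.9%) and 2631 (15.6%). Among genes with at least 20 counts in each input library, 1762 of 13696 were enriched (12.9%) and 2941 depleted (21.5%). Each ratio is relative to the rest of the RNA in its library, and a shift common to all RNA cannot be seen in it. A fit that took the spread from all 8 wild-type populations called 1744 genes enriched and 2956 depleted. With the pair of replicate 1 left out of that fit 1286 were enriched and 2236 depleted, and with that of replicate 2 left out 1532 and 2676.

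**Figure D1:**
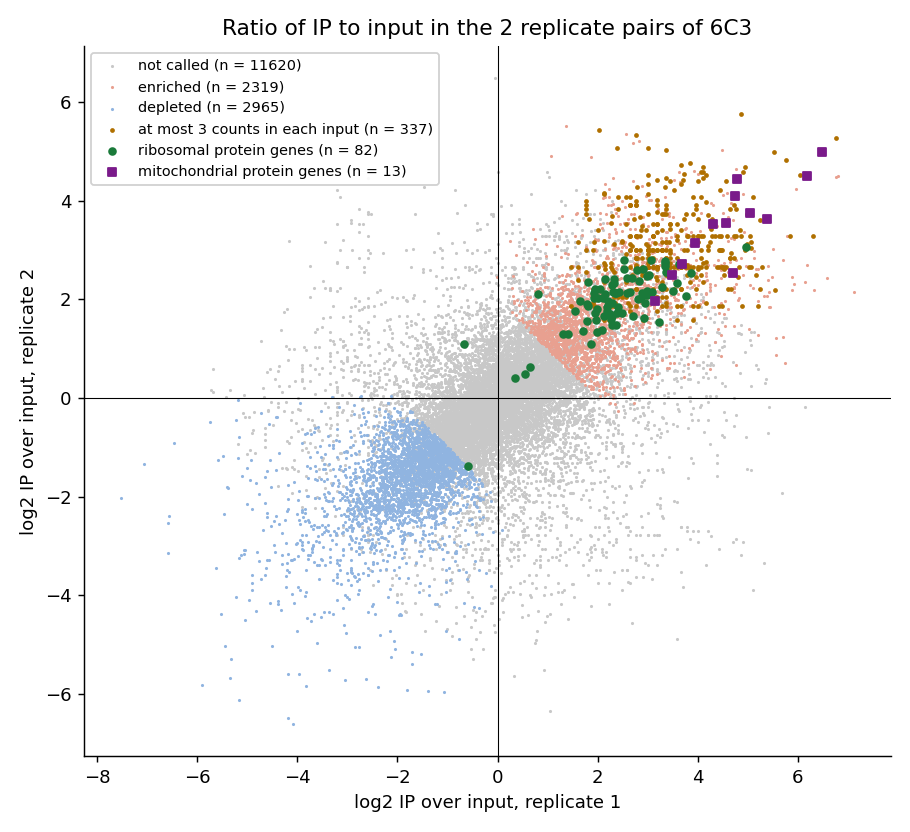
Log2 ratio of IP to input in replicate 1 (x axis) and replicate 2 (y axis) for each of the 16904 genes tested in 6C3, with log2 CPM computed at a prior count of 2. The ribosomal protein and mitochondrial protein genes sit in the upper right with few exceptions. The 337 genes with at most 3 counts in each input library have ratios above 0 in both pairs. That direction is fixed in advance by this limit and the filter on low counts.

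The transcripts with the largest enrichment among protein-coding genes with enough input were 4 mitochondrial genes, Rpl39, Lars2, S100a4 and 5 predicted genes. Rpl39, a protein of the large ribosomal subunit (chromosome X, 37082520 to 37085402, minus strand of GRCm38), was at 172 and 181 CPM in the IP libraries and 5.44 and 21.5 CPM in the input libraries. The IP libraries did not overlap the input libraries, and the gene was enriched in both pairs (log2 fold change 4.01 ± 0.40 (SE), adjusted p = 2.19e-08). The mitochondrial genes mt-Co2, mt-Nd6, mt-Nd2 and mt-Nd1, subunits of the respiratory chain, had log2 fold changes of 4.71 ± 0.47, 4.07 ± 0.38, 3.93 ± 0.39 and 3.62 ± 0.47 (± SE). The ratio of mt-Co2 is uncertain, since it rests on 24 and 41 input counts and 100% of its 31-base words occur in other genes. Lars2, the mitochondrial leucyl-tRNA synthetase (chromosome 9, 123366927 to 123462666, plus strand), was at 2087 and 994 CPM in the IP libraries and 155 and 91.9 CPM in the input libraries, with the lower IP value well above the higher input value (log2 fold change 3.59 ± 0.38 (SE), adjusted p = 7.03e-08). S100a4, a calcium-binding protein of fibroblasts, rose by 3.64 ± 0.49, and its ratio is uncertain because 58.1% of the 31-base words of its transcript occur in other genes. The other 5 of the 12 were the predicted genes Gm10801, Gm10800, Gm10722, Gm21738 and Gm2000, at log2 fold changes between 3.68 and 4.39. Between 34.3% and 90.4% of the words of these transcripts are shared with other genes, and for all but Gm2000 the enrichment was uneven between pairs. Gm10800, for one, had log2 ratios of 6.31 and 2.19.

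Enriched protein-coding transcripts with under 10% shared words have little sequence in common with other annotated transcripts. The measure does not see sequence shared with other parts of the genome, and mixing with reads from there was not tested. The transcripts given here were picked after their values were seen. After Lars2 came Nlgn2, a neuroligin of cell contacts, at 49.3 and 43.1 CPM in the IP libraries and 4.68 and 5.06 CPM in the input libraries (log2 fold change 3.24 ± 0.36 (SE), adjusted p = 1.39e-07). Nr4a3, an orphan nuclear receptor of the immediate early response, had a log2 fold change of 3.20 ± 0.39, Trim56, a ubiquitin ligase, 3.16 ± 0.41, and Nufip2, an RNA-binding protein, 3.05 ± 0.34. Mt1, a metal-binding metallothionein, was at 1095 and 952 CPM in the IP libraries and 92.4 and 149 CPM in the input libraries (log2 fold change 3.12 ± 0.37 (SE), adjusted p = 3.57e-07). Egln1, the prolyl hydroxylase that marks HIF for decay, rose by 3.02 ± 0.38. Erf, a repressor of the ETS family, rose by 3.05 ± 0.49 on average but unevenly, with log2 ratios of 4.72 and 1.46 in the 2 pairs.

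**Figure D2:**
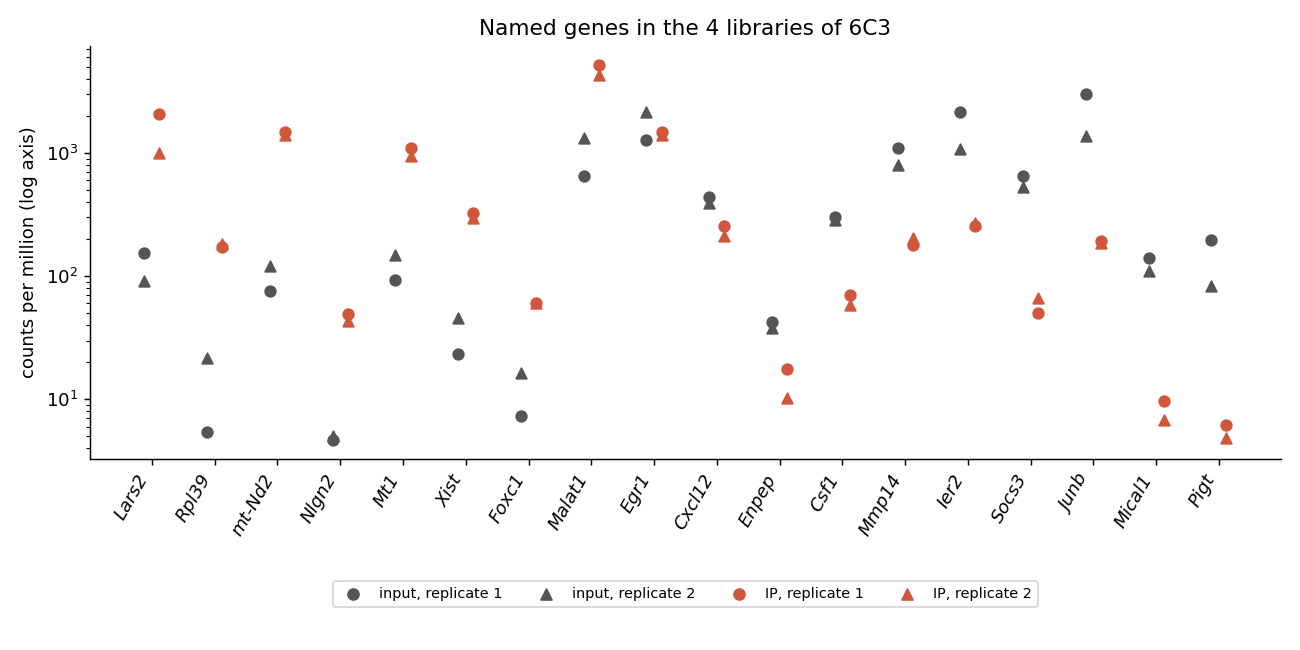
CPM (log axis) of 18 named genes in each of the 4 libraries of 6C3, input in grey and IP in red, replicate 1 as circles and replicate 2 as triangles. The genes run from enriched on the left to depleted on the right, and for Egr1 the IP values fall inside the span of the input values.

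Transcripts of the mitochondrial genome made up 5.27% and 4.53% of the counts in IP and 0.287% and 0.587% in input. All 13 protein genes were enriched, with log2 fold changes from 2.56 to 5.80 and a median of 4.07, against -0.06 over all genes tested. For 1 of the 13, with at most 3 counts in each input library, the direction was fixed by the low input. The median share of their 31-base words found in other genes was 62.8%, and 4 of the 13 were under 10%. mt-Cytb, the cytochrome b of complex III, was at 6855 and 6827 CPM in the IP libraries and 776 and 1738 CPM in the input libraries (log2 fold change 2.56 ± 0.42 (SE), adjusted p = 2.39e-05). mt-Nd1, of complex I, was at 4021 and 4001 CPM in the IP libraries and 155 and 689 CPM in the input libraries and mt-Co1, of complex IV, at 4637 and 4528 CPM in the IP libraries and 414 and 804 CPM in the input libraries. In each of these 3 the IP values nearly coincided, while the input values lay well apart and far below them. mt-Co3 and mt-Atp6 had low input counts and larger fold changes, 5.76 ± 0.46 and 5.35 ± 0.47, and over 99% of their 31-base words occur in other annotated genes, so that their counts may hold only part of their reads. mt-Rnr2, the large mitochondrial ribosomal RNA, was at 26268 and 22819.7 CPM in the IP libraries and 1067 and 2007 CPM in the input libraries (log2 fold change 4.06 ± 0.48 (SE), adjusted p = 2.58e-07), and mt-Rnr1, the small one, had a log2 fold change of 4.11 ± 0.40. Rn18s-rs5, a gene related to cytosolic 18S ribosomal RNA, took 2.27% and 1.31% of counts in IP against 0.0191% and 0.0568% in input (log2 fold change 5.66 ± 0.56 (SE), adjusted p = 2.19e-08). These ribosomal RNAs were named after their values were seen.

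Genes of the cytosolic ribosome were enriched with few exceptions. 77 of 82 ribosomal protein genes were enriched and none depleted, against 13.7% of all genes tested, and the median log2 fold change was 2.16 (2.33 in pair 1 and 2.05 in pair 2). The count was 76 or 77 in every alternative run. Rpl5, which carries 5S ribosomal RNA, was at 2007 and 2211 CPM in the IP libraries and 637 and 566 CPM in the input libraries, with both IP libraries well above both input libraries (log2 fold change 1.81 ± 0.36 (SE), adjusted p = 0.000288). Rplp0, of the ribosomal stalk, had a log2 fold change of 1.48 ± 0.35, Rpl41, the smallest protein of the ribosome, 2.95 ± 0.39, Rps28 3.17 ± 0.34 and Rps21 3.07 ± 0.33. Among the members that did not pass were Rps10, Rpl4, Rpl24 and Rpl36al, with log2 fold changes from -1.12 to 0.66. Ribosomal protein genes have many processed copies in the genome. The median share of their 31-base words found in other genes was 54.3%, and of the 5 members under 10%, 5 were enriched. Their share of all counts was 2.41% and 2.54% in IP and 0.498% and 0.667% in input.

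Ribosomal protein mRNAs are known to begin with a run of pyrimidines, and the bases around their annotated start sites were read from RefSeq (GRCm38.p6). CTTTC was searched for anywhere in a window, so a match need not lie at the start of the mRNA. In Rps15a the match lies before the annotated start, in Rps26 it lies some bases after it, in Rpl38 it lies at the start, and Rps27 has a copy on either side. The 4 windows given here run from 15 bases before to 15 bases after the annotated start, 5′ to 3′ on the gene's strand, with CTTTC in capitals, and belong to the 4 most enriched ribosomal protein genes that hold this motif.
Rps15a (chr7:118116133-118116162, minus strand): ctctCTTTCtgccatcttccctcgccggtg
Rps27 (chr3:90213634-90213663, minus strand): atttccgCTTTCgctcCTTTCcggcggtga
Rps26 (chr10:128626492-128626521, minus strand): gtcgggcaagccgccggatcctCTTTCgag
Rpl38 (chr11:114668565-114668594, plus strand): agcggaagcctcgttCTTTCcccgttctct
CTTTC was found on the gene's strand in 15 of 60 ribosomal protein windows matched by symbol, or 25%. It was in 3.97% of all 27025 start windows of the table. Among protein-coding genes with at least 20 counts in each input library it was in 308 of 9692 windows (3.18%). It was in 68 of 1186 windows of enriched genes (5.73%) and 53 of 2200 of depleted genes (2.41%). The enriched genes include most of the ribosomal protein genes, and their share without these was not computed. Counting either strand (CTTTC or GAAAG), the shares were 28.3%, 8.35% and 4.41%, in the order ribosomal, enriched, depleted.

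The nuclear-encoded respiratory chain and part of the translation machinery were enriched too. Of 75 nuclear subunits of the respiratory chain and ATP synthase, 52 were enriched (69.3%) and 3 depleted (4%), with a median of 1.65. Of all genes tested 13.7% were enriched and 17.5% depleted. Cox4i1, a subunit of complex IV, was at 840.1 and 895 CPM in the IP libraries and 179 and 336 CPM in the input libraries (log2 fold change 1.82 ± 0.35 (SE), adjusted p = 0.000192). Cox6a1 had a log2 fold change of 2.05 ± 0.33, and Uqcrb and Uqcrh, of complex III, 2.62 ± 0.33 and 2.58 ± 0.32. Atp5b, the catalytic beta subunit of ATP synthase, did not pass, at -0.28 ± 0.32, and Ndufv1, Sdha and Uqcrc1, which are among the larger subunits, were depleted at -1.06, -1.49 and -1.74. Among translation factors 13 of 37 members tested were enriched (35.1%) and 3 depleted (8.11%), with a median log2 fold change of 0.66. Pabpc1, the cytoplasmic poly(A)-binding protein, was at 402 and 399.9 CPM in the IP libraries and 48.1 and 105 CPM in the input libraries (log2 fold change 2.49 ± 0.35 (SE), adjusted p = 3.42e-06), Tpt1, a translationally controlled protein, had 2.23 ± 0.35, Eef1a1, the elongation factor that brings tRNA and shares 74.8% of its words with other genes, 1.37 ± 0.35, and Eif1, of start codon choice, 1.27 ± 0.36. Eif5a, whose hypusine aids elongation, did not pass (-0.47 ± 0.35), and Eif4h, Eif3b and Eif4g1, all initiation factors, were depleted. Without the replicate 1 pair 7 of these factors were enriched. Proteasome subunits, which destroy ubiquitin-tagged proteins, gave no such shift, with a median log2 fold change of -0.03. Of 35 members tested 5 were enriched (14.3%) and 4 depleted (11.4%), the enriched share near that of all genes. Psma7, of the core, was at 0.78 ± 0.34, and Psmd2 and Psmd3, of the cap, were depleted at -1.83 ± 0.32 and -2.32 ± 0.33.

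Long noncoding RNAs listed together as nuclear or as hosts of small nucleolar RNAs, a label that need not hold for every member, were often enriched. Of 17 tested 11 were enriched (64.7%) and none depleted, with a median of 1.78, against 13.7% and 17.5% of all genes. Malat1, of nuclear speckles (chromosome 19, 5795690 to 5802672, minus strand), was at 5228 and 4329 CPM in the IP libraries and 649 and 1323 CPM in the input libraries (log2 fold change 2.36 ± 0.41 (SE), adjusted p = 5.45e-05). H19, an imprinted growth regulator, was at 2159 and 2310.4 CPM in the IP libraries and 338 and 464 CPM in the input libraries, with either IP library far above either input library (log2 fold change 2.50 ± 0.37 (SE), adjusted p = 6.9e-06). Xist, the RNA that silences an X chromosome (chromosome X, 103460366 to 103483254, minus strand), had a log2 fold change of 3.26 ± 0.36 and Kcnq1ot1, which silences an imprinted cluster, 2.49 ± 0.32. Meg3 did not pass, at 599 and 671 CPM in the IP libraries and 536 and 806 CPM in the input libraries (-0.05 ± 0.34). The snoRNA hosts Snhg8, Snhg12, Gas5, Snhg1 and Snhg5, singled out after their values were seen, had log2 fold changes of 3.02, 2.03, 2.11, 1.78 and 1.18. Over all long noncoding genes with at least 20 counts in each input library the largest enrichment was in Gm26982 (3.46 ± 0.58) and 1700120C14Rik (3.37 ± 0.58), followed by Xist. The 3 at the other end, BC043934, Gm12349 and Gm15684, had no counts in either IP library and were at least 17.6-fold, 14.6-fold and 9.82-fold lower in IP. By annotation class, 75 of 367 lincRNA genes were enriched and 11 depleted, against 1805 and 2869 of 14226 protein-coding genes and 112 and 12 of 484 processed pseudogenes. The clustered histone genes, most of whose mRNAs lack a poly(A) tail, had 14 of 40 enriched and none depleted (median 1.69), with Hist1h4d at 3.13 ± 0.39, Hist1h1b at 2.95 ± 0.43 and Hist1h2bc at 1.19 ± 0.33, but 6 were called without the replicate 1 pair.

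Genes with hardly any input counts were read apart, because their ratio rests on the IP counts alone. At most 3 counts in each input library were found for 337 genes tested, and 213 of them were called enriched (63.2%), which is part of the 2319 above. None could be called depleted, since they lack the input for it, so the direction is fixed by how they were chosen and the share is no finding. Among the 16567 other genes 2106 were enriched (12.7%). At an adjusted p under 0.05 the 213 fell to 100, without the replicate block they became 321, and with either pair left out 23 (without replicate 1) or 38 (without replicate 2). The 2 IP libraries of a called gene held a median of 40 counts in sum, with a range from 18 to 229, and 124 genes had at least 10 counts in both. The CPM was higher in IP replicate 1 for 139 of the 213. Among all genes, 5017 had counts only in IP and 3051 only in input.

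The 10 of these genes with the most IP counts were mostly predicted or sensory genes. Gm43018, a predicted gene, had 186 and 43 counts in IP and none in input. Set against a floor of 3 counts over both input libraries, its level was at least 137-fold higher in IP. Vmn2r76, a pheromone receptor of the vomeronasal organ, had 112 and 25 IP counts and no input counts (at least 82.2-fold), Zxdb, an X-linked zinc-finger factor, 91 and 31 (at least 73.2-fold), 4930555F03Rik 77 and 35 (at least 67.2-fold), and Xkr6, a Kell blood group-related membrane protein, 48 and 61 (at least 65.4-fold). Of Zxdb's 31-base words 51.2% occur in other genes. Xkr6 was the only 1 of these 5 with more CPM in IP replicate 2. Where 1 to 5 input counts were present the ratio could be given with its exact 95% interval of counting error. It was 137 (37.2 to 1139) for Gm44101, 199.7 (35.1 to 7959) for Gm43010 and 52.8 (17.5 to 261) for Gm38393. It was 33.8 (14 to 107) for Gm6044 and 35.3 (14.6 to 111) for Thy1. Thy1, the CD90 surface antigen by which another population of this sort is gated, had 86 and 12 counts in IP and 2 and 3 in input.

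Odorant and pheromone receptors, known for their work in sensory neurons of the nose, were among these genes. Of 39 olfactory receptor genes tested, 24 had hardly any input, and 22 of the 25 called enriched were among these, so that their direction was fixed by the count limit and their number is no finding. Of the 1274 in the table the other genes were too low to be tested. Olfr592 had 57 and 18 IP counts and Olfr121 65 and 6, both with no input count, for at least 45.0-fold and 42.6-fold. Olfr558, Olfr78 and Olfr920, which had input counts in both libraries, did not pass, at 1.14 ± 0.78, -0.08 ± 0.96 and 1.00 ± 0.91. Summed over all 1274 olfactory receptor genes in the table, the scaled counts were 323 and 108 in IP and 17.7 and 18.2 in input. IP replicate 1 held 495 of these genes with at least 1 count, IP replicate 2 235, and the input libraries 67 and 179. In the other 7 populations the sums ranged from 6.76 to 549 CPM in IP and from 5.01 to 106 CPM in input, so that both 6C3 pairs lay within those ranges. Of 18 vomeronasal receptors tested, 13 had hardly any input. Those called included Vmn1r58 (adjusted p = 0.0512) and Vmn1r33 (at least 33.0-fold higher). With either pair left out, at most 1 member of the 2 receptor lists together was still called. Of the predicted Gm genes 350 of 1767 were enriched (19.8%) and 63 depleted (3.57%), against 13.7% and 17.5% of all genes. Of the enriched ones 84 had hardly any input, and 91 and 115 Gm genes were enriched with replicate 1 or 2 left out.

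At the other end, the protein-coding genes with the lowest fold changes had no counts at all in the 2 IP libraries, and the fitted fold change of such genes depends on the prior count. Thtpa, a thiamine triphosphatase, had 142 and 152 counts in input and none in IP, so its level in IP was at least 54.5-fold lower against a floor of 3 counts over both IP libraries (adjusted p = 3.99e-05). Of its 31-base words 56.4% occur in other genes. Gyltl1b, a glycosyltransferase of dystroglycan, was at least 43.3-fold lower, Kifc2, a minus-end kinesin, at least 34.8-fold, and AI467606 at least 36.9-fold. The receptors and channels Npy4r, Crhr2, Adra1d, Hcn3 and Gjb1 were at least 30, 19.3, 17.2, 19.3 and 18-fold lower. Tmem132e, Prrt4 and Peli3 completed the 12, at least 21.9, 18.5 and 18.5-fold lower. In all, 49 genes with at least 20 counts in each input library had none in IP.

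Most depleted genes were measured in all 4 libraries. 2576 of the 2965 had at least 20 counts in each, and the genes with the largest depletion among these, named after their values were seen, were led by Pigt, a subunit of the enzyme that attaches GPI anchors (chromosome 2, 164497520 to 164508301, plus strand). It was at 6.19 and 4.81 CPM in the IP libraries and 195 and 83.7 CPM in the input libraries, with no overlap between IP and input (log2 fold change -4.56 ± 0.36 (SE), adjusted p = 7.88e-10). Fbxl18, an F-box protein, had a log2 fold change of -3.99 ± 0.41, Kctd10, a BTB-domain adaptor of a cullin ligase, -3.98 ± 0.37, and Mical1, an enzyme that disassembles actin by oxidation, -3.94 ± 0.33. Mdfi, an inhibitor of myogenic factors, fell to -3.85 ± 0.35, Chpf2, of chondroitin synthesis, to -3.69 ± 0.35, and Ncs1, a neuronal calcium sensor, to -3.57 ± 0.40. Ngfr, the low-affinity neurotrophin receptor CD271, was at 1.71 and 2.65 CPM in the IP libraries and 29.9 and 26.2 CPM in the input libraries (log2 fold change -3.72 ± 0.42 (SE), adjusted p = 1.84e-07). Among genes with over 1000 counts in every library, Junb, Ccdc80, Socs3 and Arc had the largest depletion. Ccdc80, a secreted matrix protein, was at 178 and 164 CPM in the IP libraries and 3368 and 910.3 CPM in the input libraries (log2 fold change -3.36 ± 0.43 (SE), adjusted p = 8.31e-07), and Socs3, which restrains cytokine receptors, was at 50.4 and 65.9 CPM in the IP libraries and 649.6 and 528 CPM in the input libraries (log2 fold change -3.34 ± 0.36 (SE), adjusted p = 8.87e-08).

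Short-lived transcripts of the immediate early response, switched on within minutes of a stimulus such as cell dissociation, were split. 8 of 24 were depleted, 3 enriched and 13 not called, against 17.5% and 13.7% of all genes, with a median of -0.25. Junb, a subunit of AP-1 (chromosome 8, 84974484 to 84978718, minus strand), was at 193 and 187 CPM in the IP libraries and 2999.6 and 1377 CPM in the input libraries. Its IP values were alike, the input values were further apart, and the gene was depleted in both pairs (log2 fold change -3.42 ± 0.40 (SE), adjusted p = 2.64e-07). Ier2 was at 257 and 272 CPM in the IP libraries and 2167 and 1084 CPM in the input libraries (log2 fold change -2.53 ± 0.38 (SE), adjusted p = 7.87e-06). Nr4a3, named above, was enriched, and the related Nr4a1 was depleted at -1.87 ± 0.34. Egr1, a zinc-finger factor of the same response, was at 1484 and 1397 CPM in the IP libraries and 1282 and 2145 CPM in the input libraries and did not pass (-0.20 ± 0.37). Of genes of cell division 2 of 30 members tested were enriched and 9 depleted, with a median log2 fold change of -0.60. Kif20a, a kinesin of cytokinesis, was at 2.28 and 0.493 CPM in the IP libraries and 28.4 and 17.6 CPM in the input libraries (log2 fold change -4.24 ± 0.48 (SE), adjusted p = 1.84e-07), Mcm6, of the replicative helicase, had -2.03 ± 0.31, and Rrm2, of the ribonucleotide reductase, -1.02 ± 0.32. Ccnb2, a mitotic cyclin, was enriched at 1.17 ± 0.30, and Pcna, the replication clamp, did not pass (0.36 ± 0.30). Of the glycolytic enzymes 6 of 19 were depleted and 1 enriched (median -0.41). Pfkl, of the committed step, was at 23.5 and 26.9 CPM in the IP libraries and 145 and 176 CPM in the input libraries (log2 fold change -2.67 ± 0.32 (SE), adjusted p = 3e-07) and Pkm, which makes pyruvate, had -1.72 ± 0.35, while Eno1 and Ldha did not pass (-0.65 ± 0.36 and -0.26 ± 0.34). Pkm and Eno1 share 50.9% and 73.0% of their words with other genes.

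**Figure D3:**
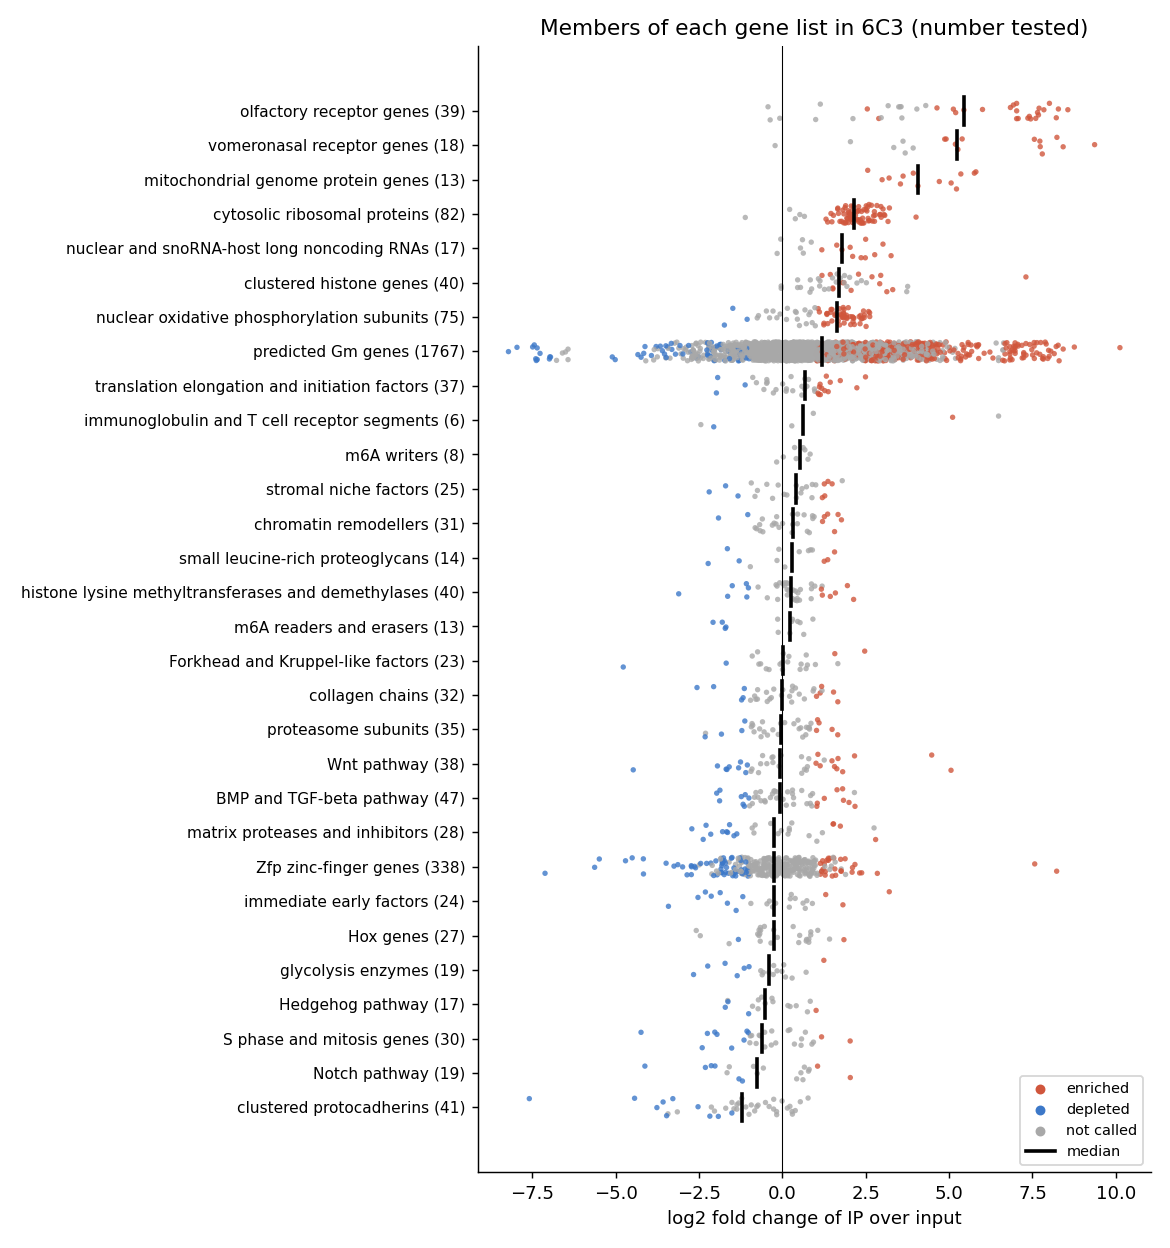
Log2 fold change of IP over input (x axis) of every tested member of 30 gene lists in 6C3, 1 row per list with the number of members tested, coloured by call and with the list median as a black bar. The medians of the mitochondrial, ribosomal, respiratory chain and nuclear long noncoding lists lie to the right of 0, with all 13 mitochondrial genes above it, and clustered protocadherins have the lowest median, -1.22.

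Genes listed as markers of 6C3 stroma and of its support of blood cells were found on both sides. Their input levels, scaled by library size alone, do not set 6C3 apart. Cxcl12 was at 431 and 383 CPM in the 6C3 input libraries and at a mean of 1748 CPM in PCP. Kitl, Lepr, Vcam1 and Pdgfrb were also higher in PCP, and Csf1 was higher in THY (479 CPM against 297 and 281). Enpep, the 6C3 antigen (chromosome 3, 129269175 to 129332720, minus strand), was at 17.5 and 10.2 CPM in the IP libraries and 42.1 and 38.1 CPM in the input libraries and was depleted in both pairs (log2 fold change -1.58 ± 0.34 (SE), adjusted p = 0.00059). Csf1, the growth factor of macrophages and osteoclasts, was at 70.1 and 58.6 CPM in the IP libraries and 301 and 287 CPM in the input libraries (log2 fold change -2.20 ± 0.32 (SE), adjusted p = 5.26e-06). Its IP and input levels did not overlap. Pdgfrb, a mesenchymal growth factor receptor, was depleted at -1.13 ± 0.30. Foxc1, a factor needed for the marrow stroma that supports blood stem cells (chromosome 13, 31806633 to 31812476, plus strand), was at 61.0 and 61.0 CPM in the IP libraries and 7.35 and 16.4 CPM in the input libraries (log2 fold change 2.47 ± 0.35 (SE), adjusted p = 3.47e-06). Ebf3, which acts in the same stroma, had 1.66 ± 0.57, Grem1, an antagonist of BMP, 1.26 ± 0.31, and Itgav, the CD51 integrin used to gate skeletal cells, 1.52 ± 0.32, all 3 enriched. Cxcl12 was at 256 and 213 CPM in the IP libraries and 437 and 392 CPM in the input libraries and did not pass (-0.82 ± 0.32), nor did Kitl (-0.47 ± 0.34), Lepr (-0.30 ± 0.44), Pdgfra (-0.83 ± 0.30), Vcam1 (-0.13 ± 0.32) and Eng (-0.99 ± 0.30). Over the 25 niche factors tested, 5 were enriched (20%) and 3 depleted (12%), with a median of 0.42. Of all genes tested 13.7% were enriched and 17.5% depleted. Tnfrsf11b, the decoy receptor osteoprotegerin, was depleted at -1.71 ± 0.31, and Ccl2 and Spp1 did not pass (0.90 ± 0.36 and 0.13 ± 0.36). Among markers of other cells, 5 of 11 blood cell markers tested were enriched, Lyz2, S100a8, S100a9, Hbb-bs and Hba-a1, the haemoglobin genes with most of their words shared with close copies. The calls of Lyz2 and S100a9 rest on an unadjusted p (adjusted p = 0.0951 and 0.102), and S100a9 was at 0.35 without the replicate 2 pair and at -1.41 without IP replicate 2. S100a8 had 40 and 295 IP counts and 0 and 118 input counts, so most of its counts came from replicate 2. Of the pericyte markers Notch3 was enriched (2.04 ± 0.50), and Cspg4, Acta2 and Rgs5 did not pass. Of 6 bone cell markers tested, Bglap, the osteocalcin of mature osteoblasts, was enriched at 3.09 ± 0.68, on 19 and 38 input counts. Dmp1, of osteocytes, and Sp7, a factor of osteoblast commitment, were depleted at -3.52 ± 0.41 and -1.95 ± 0.48, and Ibsp, Col1a1 and Alpl did not pass.

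Matrix genes were found on both sides too. Of 28 matrix metalloproteases, ADAMTS enzymes and inhibitors, 10 were depleted (35.7%) and 4 enriched (14.3%), with a median of -0.24. Of all genes tested 17.5% were depleted and 13.7% enriched. From 10 to 12 of the 28 were depleted whichever library or pair was left out. Mmp14, the membrane enzyme that activates MMP2, was at 179.7 and 205 CPM in the IP libraries and 1107 and 799 CPM in the input libraries (log2 fold change -2.29 ± 0.36 (SE), adjusted p = 1.15e-05). Mmp2, a gelatinase, was at 382 and 359 CPM in the IP libraries and 1183 and 1399.8 CPM in the input libraries, which again left no overlap (log2 fold change -1.80 ± 0.35 (SE), adjusted p = 0.000226). Adamts4, an aggrecanase, had -2.72 ± 0.33, whereas Timp2, an inhibitor of these enzymes, was enriched at 523 and 493 CPM in the IP libraries and 123 and 256 CPM in the input libraries (log2 fold change 1.52 ± 0.35 (SE), adjusted p = 0.00126). The collagens took 16% and 17.3% of counts in IP and 20.2% and 22.8% in input. Of the chains, 5 of 32 were enriched and 5 depleted, 15.6% in each direction and near the shares of all genes tested. The main fibre chains did not pass, with Col1a1 at -0.46 ± 0.47, Col1a2 at 0.94 ± 0.42 and Col2a1 at -0.74 ± 0.44. Col8a2, a short-chain collagen, was at 76.9 and 82.3 CPM in the IP libraries and 478 and 462 CPM in the input libraries (log2 fold change -2.56 ± 0.34 (SE), adjusted p = 1.09e-06), and Col9a2, which decorates cartilage fibrils, had -2.06 ± 0.36. Without the replicate 1 pair 10 collagens were depleted. Of 14 small leucine-rich proteoglycans 3 were enriched and 3 depleted (21.4% in each direction). Among them were Ogn, osteoglycin, at 1.56 ± 0.37 and Podn, podocan, at -2.23 ± 0.33. Bgn, Fmod and Chad, all abundant, did not pass (0.84 ± 0.39, -0.96 ± 0.38 and -0.16 ± 0.37).

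The counts of signalling pathways are read against the 13.7% enriched and 17.5% depleted of all genes tested. In the Wnt pathway 11 of 38 members were enriched (28.9%) and 9 depleted (23.7%). Fzd8, a Wnt receptor, was at 13.3 and 20 CPM in the IP libraries and 0.174 and 2.0 CPM in the input libraries, a large gap that rests on 6 and 78 input counts (log2 fold change 4.48 ± 0.59 (SE), adjusted p = 1.2e-06). Tcf7l1, a transcriptional effector, had 2.16 ± 0.38, and the secreted antagonists Wif1 and Dkk3 were depleted, Wif1 at 1386 and 1915 CPM in the IP libraries and 3485 and 3279.5 CPM in the input libraries (log2 fold change -1.05 ± 0.37 (SE), adjusted p = 0.0321) and Dkk3 at -1.26 ± 0.32. Tcf7l2 did not pass (0.57 ± 0.35). Of 47 BMP and TGF-beta pathway genes 8 were enriched and 8 depleted, 17.0% in each direction and near those shares. The enriched ones held receptors and intracellular parts, Bmpr2 at 2.18 ± 0.32 first, then Smurf2 (2.0), Smad4 (1.83), Id2 (1.81), Smad6 (1.64), Smad7 (1.05) and Bmpr1a (1.03), and the secreted antagonist Grem1. The depleted ones were mostly ligands, Tgfb3 at -1.89 ± 0.32, Gdf6 (-1.97), Gdf5 (-1.88), Bmp3 (-1.23), Gdf10 (-1.18) and Bmp5 (-1.01), with the receptor Bmpr1b (-1.14) and the protease Bmp1 (-1.12). This split was read after the values were seen and was not tested, and without the replicate 1 pair 4 were enriched. Fstl1 and Id3 did not pass (0.30 ± 0.35 and 0.90 ± 0.32). In the Notch pathway 6 of 19 members were depleted (31.6%) and 2 enriched (10.5%), with a median of -0.75, with Heyl, a target, at -2.31 ± 0.53 and Rfng, a glycosyltransferase of Notch, at -2.14 ± 0.45. The count of depleted members fell to 2 with 1 library left out, and Notch2, Jag1 and Hes1 did not pass. Of 17 Hedgehog genes 3 were depleted, a share of 17.6% that is near the 17.5% of all genes, with Spop, which degrades GLI factors, at -1.72 ± 0.31, Sufu, which holds them, at -1.63 ± 0.44, and the transducer Smo at -1.01 ± 0.31, and the receptor Ptch1 was enriched at 1.01 ± 0.34. Among forkhead and Krüppel-like factors 2 of 23 members tested were enriched and 2 depleted, with a median log2 fold change of 0.03, with Klf15 depleted (-4.78 ± 0.66) and Klf13, Klf10 and Klf6 not called.

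Few genes of the m6A machinery were called. None of the 8 tested genes of the methyltransferase complex was called by edgeR, with log2 fold changes from -0.17 to 0.83, and the unadjusted p was under 0.05 for 1 of them, Mettl14 (0.0457), and 2 were called without the replicate 1 pair. Wtap was at 0.77 ± 0.38, Rbm15 at 0.67 ± 0.35 and Zc3h13 at 0.41 ± 0.31. Of 13 readers and erasers 4 were depleted (30.8%) and none enriched, against 17.5% and 13.7% of all genes tested. Fto, the eraser, was at 57.2 and 33.4 CPM in the IP libraries and 222 and 154 CPM in the input libraries, with IP below input in both pairs (log2 fold change -2.08 ± 0.31 (SE), adjusted p = 7.5e-06), Igf2bp2 had -1.81 ± 0.30, Igf2bp1 -1.72 ± 0.37 and Ythdf3 -1.69 ± 0.31. Alkbh5, Ythdf2 and Hnrnpa2b1 did not pass (-0.13 ± 0.34, -0.14 ± 0.30 and 0.64 ± 0.34). Of 40 histone lysine methyltransferases and demethylases, 6 were enriched (15%) and 6 depleted (15%), close to the 13.7% and 17.5% of all genes tested. Setd1b, of the COMPASS family, was enriched at 24.1 and 26.8 CPM in the IP libraries and 4.80 and 6.96 CPM in the input libraries (log2 fold change 2.14 ± 0.38 (SE), adjusted p = 6.33e-05), Jmjd1c at 1.17 ± 0.31, and Kdm4b, a demethylase, was depleted at 4.73 and 5.42 CPM in the IP libraries and 47.6 and 40.2 CPM in the input libraries (log2 fold change -3.11 ± 0.37 (SE), adjusted p = 2.63e-07). Kdm6b, a demethylase of a silencing mark, was at 2176 and 2943 CPM in the IP libraries and 1978 and 969.9 CPM in the input libraries and did not pass (0.87 ± 0.40). Of 31 chromatin remodelling genes 6 were enriched (19.4%) and 2 depleted (6.45%), against 13.7% and 17.5% of all genes. Arid1b was enriched at 1.56 ± 0.31, and Smarcd2 and Smarce1 were depleted at -1.92 ± 0.36 and -1.04 ± 0.30. Of 338 zinc-finger Zfp genes 28 were enriched (8.28%) and 59 depleted (17.5%), against 13.7% and 17.5% of all genes tested, with Zfp560 at 2.32 ± 0.34, Zfp212 at -3.14 ± 0.39 and Zfp36l1 not called. Of 27 Hox genes 1 was enriched, Hoxa13, which is active in the distal limb, at 1.84 ± 0.65, and 1 depleted, Hoxd9 at -1.32 ± 0.34. Clustered protocadherins, adhesion proteins with shared exons, had 10 of 41 depleted and none enriched (median -1.22). The count was 3 without the replicate 1 pair, and Pcdhgc3, at -3.48 ± 0.55, shares 76.8% of its words with other genes. Of 6 names matched as immunoglobulin or T cell receptor segments 1 was enriched, Trdj1, and 1 depleted, Tradd, which is a TNF receptor adaptor and no receptor segment.

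Transcript properties were compared over the 12635 protein-coding genes with at least 20 counts in each input library. Of these, GC content had the rank correlation with the fold change furthest from 0, a measure that misses relations that rise at both ends. Enriched transcripts had a median GC content of 48.8% and depleted ones 54.1%, against 50.6% over all, and when genes were split into 4 bins of equal size, 9.18% were enriched and 36.8% depleted in the bin of highest GC content, against 15.5% and 9.05% in the lowest. The Spearman correlation across genes, which are not independent, was -0.282, and it was -0.252 and -0.269 in the 2 pairs. Coding length behaved differently, since the share of enriched genes was 23.0% in the shortest of 4 bins (111 to 879 bases), 6.18% and 6.90% in the middle ones, and 13.6% in the longest (2253 bases or more). The median coding length was 1028 bases for enriched, 1545 for depleted and 1407 for all genes, and 1188 for enriched genes without the ribosomal protein, respiratory chain and mitochondrial genes. Transcript length followed the same shape, with 20.8%, 5.16%, 7.19% and 16.6% of genes enriched and 12.3%, 33.7%, 30.8% and 13.4% depleted from the shortest bin to the longest. For 3′ UTR length the enriched shares were 18.1%, 8.66%, 8.71% and 14.2%. Since both ends of the range lay above the middle, the rank correlations of these lengths with the fold change were near 0, at -0.00963 and 0.0121. Input level was related weakly (-0.105), and since the input count is also the denominator of the ratio, this relation is partly built in.

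The motif of m6A was not more frequent in enriched transcripts. GGACT occurred at a median of 0.971 sites per 1000 bases in enriched and 1.18 in depleted transcripts, against 1.06 over all, with a correlation of -0.112. Within 200 bases of the end of the coding sequence, GGAC was found in 77.9% of enriched, 86.1% of depleted and 80.8% of genes not called, and GGACT in 36.8%, 42.7% and 39.8%. GC content was lower in enriched transcripts, as given above, and its part in these shares was not tested. Ribosomal protein transcripts held GGAC in this window in 60.5% of cases. The 9 windows given here show the stop codons of the 4 most enriched nuclear-encoded and 4 most depleted transcripts with under 10% shared words and at least 20 counts in every library, and of Enpep. Each runs from 15 coding bases through the stop codon and 12 bases beyond, read from GENCODE M21 transcripts, with GGAC in capitals.
Lars2, enriched: ttcttggtgcaggagtgaccagggcttcta
Nlgn2, enriched: tccaccactcgggtatagggggcggctttg
Rps15a, enriched: ctgggattctttttttaaacgtaaagcata
Nr4a3, enriched: gacaccctgcctttctgagcaggggaagcc
Fbxl18, depleted: cccaacctatggtggtgagaGGACcctggc
Kctd10, depleted: gcccacctccaccagtgagcaggccgagca
Mical1, depleted: agagagatgcctgcatagatgggagcccag
Mdfi, depleted: ctctgtttctcctcctgatgccatggggtg
Enpep, depleted: ttcgctagcctgccgtaGGACGGACagtga
None of the 4 enriched windows and 2 of the 5 depleted ones hold GGAC, Fbxl18 once and Enpep in 2 copies. Over all genes this window held GGAC on the transcript strand in 170 of 1533 enriched (11.1%), 406 of 2829 depleted (14.4%) and 12.2% of other transcripts. A match shows letters only and not a methylated site.

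**Figure D4:**
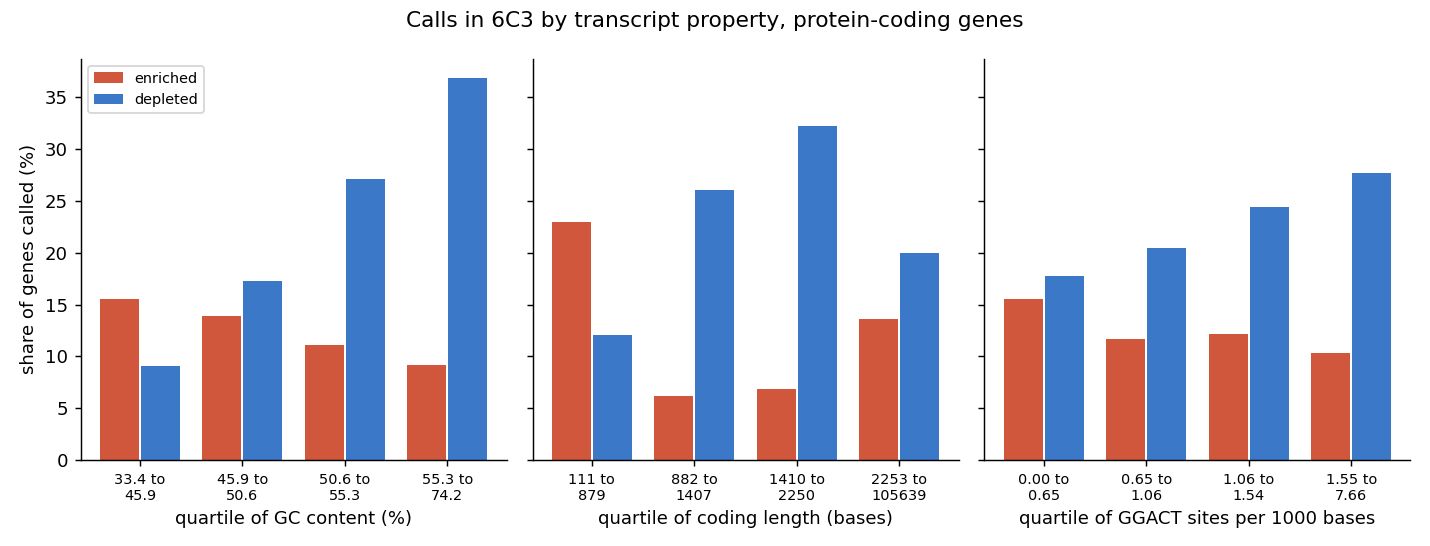
Share of genes called enriched (red) and depleted (blue) in 6C3, in percent, in 4 equal bins of GC content, coding length and GGACT sites per 1000 bases, over protein-coding genes with at least 20 counts in each input library. Depletion rises with GC content from 9.05% to 36.8%, and enrichment is most frequent in the bin with the shortest coding sequences, at 23.0%.

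Whether these ratios differed from those of the other populations was tested in 1 fit of all 32 wild-type libraries, as the log2 ratio of 6C3 minus the mean of the other 7. Of 25365 genes tested, 78 had a higher ratio in 6C3 (0.308%) and 82 a lower one (0.323%) at an adjusted p under 0.05. The median difference over all genes was 0.15, and 57.3% were positive. The higher genes included 10 of 13 mitochondrial protein genes and 12 of 82 ribosomal protein genes. Mitochondrial transcripts took 5.27% and 4.53% of counts in the 6C3 IP libraries, inside the range of the other populations (1.56% to 9.10%). In input, 6C3 replicate 1 (0.287%) lay below the range of the others (0.427% to 1.41%), and replicate 2 (0.587%) lay inside it. The list medians in this fit were 3.98 in 6C3 and 1.63 to 2.94 in the other populations for the mitochondrial genes, and 2.08 against 1.19 to 2.03 for the ribosomal ones. Of the genes with at least 20 counts in each 6C3 input library, those with the lowest p were Rn18s-rs5, mt-Rnr2, mt-Nd1, Mbp and Rps28 in the higher direction. Mbp, a myelin protein, was not called within 6C3 alone (1.15 ± 0.81). Rn18s-rs5 had a log2 ratio of 5.58 in 6C3 and 1.39 to 4.52 in the other 7 (difference 2.43 ± 0.27 (SE), adjusted p = 2.9e-10). In the lower direction they were Ncs1, Tnc, a matrix protein of growing connective tissue, Pigt, Map7d1, a microtubule-associated protein, and Cdv3. Pigt was at -4.65 in 6C3 and -3.68 to -1.90 elsewhere (difference -1.74 ± 0.31 (SE), adjusted p = 0.000367), so its ratio was below 0 in all 8 populations and lowest in 6C3. Tnc was at -1.80 in 6C3, -1.51 in PCP, -1.36 in HEC, -1.30 in BLSP and -1.21 in THY. In SSC, pBCSP and BCSP it was at 0.17 to 0.49, so its low ratio was not particular to 6C3. Map7d1 was at -2.28 in 6C3 and -2.19 in PCP, with the others between -1.61 and 0.01. Mbp was at 1.06 in 6C3, 0.69 in BCSP and -2.17 to -0.70 in the others. With replicate 1 of 6C3 left out, the difference was 1.33 for Rn18s-rs5 (against 2.43) and 0.47 for mt-Nd1 (against 1.51). It was -0.80 for Ncs1 (against -1.81) and -0.31 for Cdv3 (against -1.26). For Mbp it was 2.51 (against 2.32), for Tnc -1.16 (against -1.18) and for Map7d1 -1.17 (against -1.24). In that fit edgeR called no gene in either direction (219 higher and 269 lower at an unadjusted p under 0.05), and with replicate 2 left out 226 were higher and 162 lower. By edgeR no gene passed without the replicate block (571 and 572 unadjusted), nor with genes under a mean of 10 counts left out (693 and 565), and DESeq2 with the block called 90 and 38. DESeq2 gave Rn18s-rs5 a difference of 2.48 but did not call it (adjusted p = 0.976), nor mt-Nd1 (adjusted p = 0.100).

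**Figure D5:**
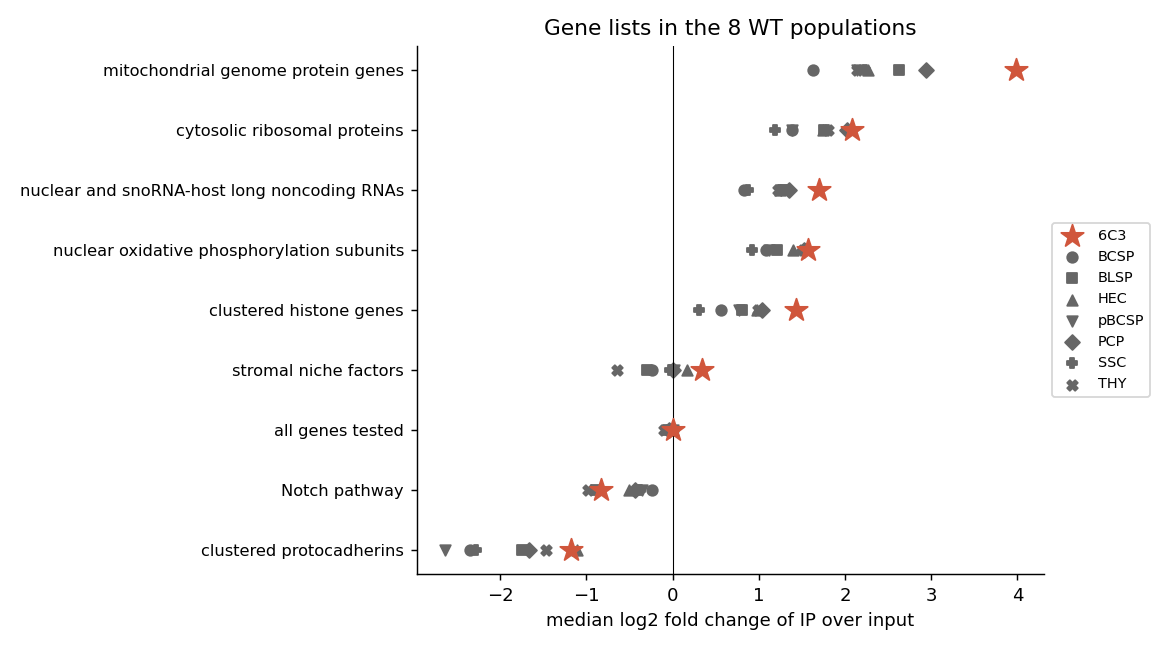
Median log2 fold change of IP over input (x axis) of 8 gene lists and of all genes in the 8 wild-type populations, from the fit of all 32 libraries, with 6C3 as a red star and the other populations as grey symbols. For mitochondrial protein genes 6C3 is at 3.98, to the right of the other 7, and for all genes tested the 8 populations lie between -0.09 and 0.00.

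HEC, the other population with high Enpep, was compared with 6C3 directly. Of the 25365 genes, 6 had a higher ratio in 6C3 (0.0237%) and 1 a lower one (0.00394%). Sostdc1, an antagonist of BMP and Wnt signals, had a log2 ratio of 1.30 in 6C3 and -1.15 in HEC (difference 2.46 ± 0.50 (SE), adjusted p = 0.0144), and B930095G15Rik, an uncharacterised gene, -3.34 and -1.50 (adjusted p = 0.0318). By DESeq2 the adjusted p was 0.0284 for Sostdc1 and 0.546 for B930095G15Rik. With replicate 1 of 6C3 left out the difference in Sostdc1 was 2.35, though not called. Without replicate 1 of 6C3 1 gene was higher and none lower by edgeR, and without replicate 2 there were 145 higher and 115 lower, so the number of differences between these 2 populations depended on which 6C3 pair was read.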

How the data were processed

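RNA bound by the m6A antibody and input RNA of wild-type 6C3 cells were sequenced in 2 replicates each. CPM are counts scaled to the same total in every library. The deposited counts are whole reads per gene, made by the authors with fastp 0.20.1, HISAT2 2.2.1 and featureCounts 2.0.1 on GRCm38. The annotation, the strand setting and the treatment of reads that map to several places are not given in the sources used here. Of 46959 entries, 128 with names made by a spreadsheet were left out, which removed no more than 0.211% of any 6C3 library. The 4 libraries held 16506779 to 39923447 counts, and where a counting interval or a floor of 3 counts is given it covers counting error only.

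Genes were tested with edgeR 4.0.16 (R 4.3.3), with TMM factors, filterByExpr and the quasi-likelihood F test, and the replicate number as a block. That fit has 1 residual degree of freedom per gene, so its p values lean on the spread shared across genes. The pairing comes from the study, in which sorted cells of 1 batch were divided between the assays. Deviations of IP and input replicates correlated at 0.0388 across genes, so the counts show little of it. Whether the cells of a replicate were pooled from several animals is not given in the sources used here, and p values measure the spread between these libraries. CPM of named genes use TMM library sizes. Differences from other populations came from 1 fit of the 32 wild-type libraries (8 residual degrees of freedom), with population by replicate as a block. DESeq2 1.42.0 served as an alternative, beside other normalizations, filters, thresholds and left-out libraries. The steps were tested on simulated data with known changes. Of 46831 genes, 45384 matched GENCODE M21 by name, which gave positions, types and transcripts, and a 31-base word counted as shared when it occurs in a transcript of another gene. Sequences around starts are from RefSeq GRCm38.p6.

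The genes named are the 12 with the largest and the 12 with the lowest fold change among protein-coding genes with at least 20 counts in each input library and the same direction in both pairs, the 10 called genes with at most 3 counts in each input library and the most IP counts, in each list the 3 members with the most counts and the 2 with the lowest p, the cell type markers, the 5 genes per direction with the lowest p in each comparison of populations, and the 3 long noncoding genes at either end. Other genes were chosen after their values were seen. The members and lists were chosen with earlier results of these data known. Some genes that these rules select are not reported here.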

Additional observations from a re-analysis of the deposited data

Results flagged for a closer look

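The ratio of IP to input differed between 6C3 and the other 7 wild-type populations for 78 genes with a higher and 82 with a lower ratio, and between 6C3 and HEC for 6 and 1. Each is a test of the difference itself by edgeR, at an adjusted p under 0.05, in the fit of 32 libraries. At an unadjusted p under 0.05 there were 730 and 643 against the other 7 populations, and 385 and 466 against HEC. The log2 difference from the mean of the other 7 was 2.43 for Rn18s-rs5, 1.18 for mt-Rnr2, 1.51 for mt-Nd1, 2.32 for Mbp and 1.44 for Rps28. It was -1.81 for Ncs1, -1.18 for Tnc, -1.74 for Pigt, -1.24 for Map7d1 and -1.26 for Cdv3. Against HEC it was 1.80 for Rn18s-rs5, 2.46 for Sostdc1 and -1.84 for B930095G15Rik. None of these 13 differences passed with replicate 1 of 6C3 left out, but their sizes moved unequally. Against the other 7 they were then 1.33 for Rn18s-rs5, 0.66 for mt-Rnr2, 0.47 for mt-Nd1, 2.51 for Mbp and 1.03 for Rps28. In the lower direction they were -0.80 for Ncs1, -1.16 for Tnc, -1.25 for Pigt, -1.17 for Map7d1 and -0.31 for Cdv3. Against HEC they were 0.70 for Rn18s-rs5, 2.35 for Sostdc1 and -1.11 for B930095G15Rik. For Tnc and Map7d1 the log2 ratio in PCP was near that in 6C3, at -1.51 against -1.80 and -2.19 against -2.28. By DESeq2 the adjusted p of Rn18s-rs5 was 0.976 against the other 7 and that of mt-Nd1 0.100. These values all share the 4 libraries of 6C3.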

How the results depend on the processing

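The fit of all 32 libraries called 1744 genes enriched and 2956 depleted. With a pair left out of it, the counts were 1286 and 2236 without replicate 1 and 1532 and 2676 without replicate 2, within 1.5 times in both directions. With single libraries left out too, enriched genes ranged from 1286 to 2528 and depleted genes from 2236 to 3133. Of the 2319 enriched genes, 1084 were still called without replicate 1 and 1259 without replicate 2. Enriched genes with input counts ranged from 1263 to 2269 with a pair or a library left out. The 213 enriched genes with hardly any input became 321 with no replicate block, 123 in the fit of all 32 libraries, 23 to 259 with a pair or a library left out, 100 at an adjusted p, 335 with the limit at 10 counts, and 140 with genes of shared sequence left out, an alternative chosen after the data were seen. The causes were not tested. Against the other 7 populations, where 78 genes were higher and 82 lower, edgeR called 0 and 0 with no replicate block or with genes under a mean of 10 counts left out, and 0 to 226 and 0 to 162 with 1 pair of 6C3 left out. Genes lower in 6C3 numbered 49 with library size alone and 38 by DESeq2, with 111 and 90 higher, and 101 and 78 with DESeq2 size factors. Against HEC edgeR called 0 and 0 with no replicate block or under the mean count limit, and 1 to 145 higher and 0 to 115 lower with 1 pair left out, and 0 were lower with library size alone or by DESeq2. For HEC the unadjusted counts were 424 and 444 with no replicate block and 330 and 349 under the mean count limit. The median difference over all genes ranged from 0.06 to 0.27 over these settings, against 0.15. The marker S100a9 turned to -1.41 without IP replicate 2, with a range of -1.41 to 4.67 over the libraries left out. Of the values of named genes within 6C3, 3324 kept their direction and side of the threshold, 115 lost the call and 78 gained it. With 2 replicates and 1 residual degree of freedom, the counts limit low genes most.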
